A study of Mus musculus with 2 samples.

Results

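The extracellular matrix genes described here encode collagens, elastic fibre proteins, basement membrane proteins, matrix proteoglycans and glycoproteins, and the enzymes that crosslink collagen and elastin. They were taken as 52 named genes, and all probe sets annotated to a single one of them were used. Of the 52 genes, 49 had such a probe set, 89 probe sets in all, out of 12393 genes and 20380 single-gene probe sets on the array. Loxl2, Fbn1 and Efemp2 had none of their own. The signals came from uterine tissue dissected between implantation sites, where no embryo is attached, on day 8 of pregnancy. One group was labelled control and the other Cbs null, which the series design describes as homozygous deficiency of Cbs. Cbs encodes cystathionine beta-synthase, the enzyme that joins homocysteine to serine. All mice were females 4 months old, of the background C57Bl/6J X OLA129. The labels name no further allele or agent for either group, and do not say which part of Cbs is altered or whether the RNA of an array was from 1 animal or from several. Each group was 1 array, so no value below has a replicate check, no test was possible and no p-value is given.

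Collagens are made as chains that wind into triple helices. The fibrillar types build the rope-like fibres of connective tissue, with collagens V and XI controlling fibre diameter, whereas collagen IV forms the sheet-like network of basement membranes together with laminins, nidogen and perlecan. Elastin is laid down on microfibrils and then crosslinked, and lysyl oxidases crosslink both elastin and collagen outside the cell. In the uterus this matrix is made by stromal fibroblasts, smooth muscle cells and vessel walls, and it is rebuilt during pregnancy as the wall grows.

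Matrix genes were mostly lower in the Cbs null sample, by modest amounts. They were chosen with a lower median of extracellular matrix genes in these data already known, so that direction is not an independent result. With each gene represented by its probe set of highest signal, 41 of the 48 genes above the floor were lower in the Cbs null sample and 7 were higher, against 46.5% of all 8410 measured genes that were lower and 53.3% that were higher. The floor was a signal of 43.2, the 40th percentile of all signals on the 2 arrays, and weaker signals were raised to it because their order is not reliable. All 48 genes lay above it on both arrays, and only Col8a1 of the 49 lay below it on both. Their median log2 ratio, with Cbs null divided by control, was -0.46, a 1.38-fold lower signal, where the median of all measured genes was 0.02. At least 1.5-fold lower were 18 of the 48 matrix genes, against 3.39% of all measured genes, and 1 was at least 1.5-fold higher, against 3.6%. At least 2-fold lower were 3 genes, the fibrillar collagen gene Col11a1, the elastin gene Eln and the laminin gene Lamb2, against 0.713% of all measured genes. No matrix gene was at least 2-fold higher, against 0.797%.

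These genes have stronger signals than most, so they were also compared above a higher cut-off, which leaves out weak genes but does not match signal strength. Of the 48, 42 had a mean signal at least 4 times the floor, and 14 of these were at least 1.5-fold lower, 33.3%, against 2.45% of all 4700 genes that bright. Their median log2 ratio was -0.42, and that of all genes so bright was 0.01. Over 2757 genes with several probe sets, the log2 ratios of one gene varied with a technical SD of 0.22, so a 1.5-fold difference, 0.58 on the log2 scale, is 2.71 such SDs. That SD comes from these arrays alone and leaves out the spread between mice, which cannot be told apart from genotype with 1 array a group.

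**Figure D1:**
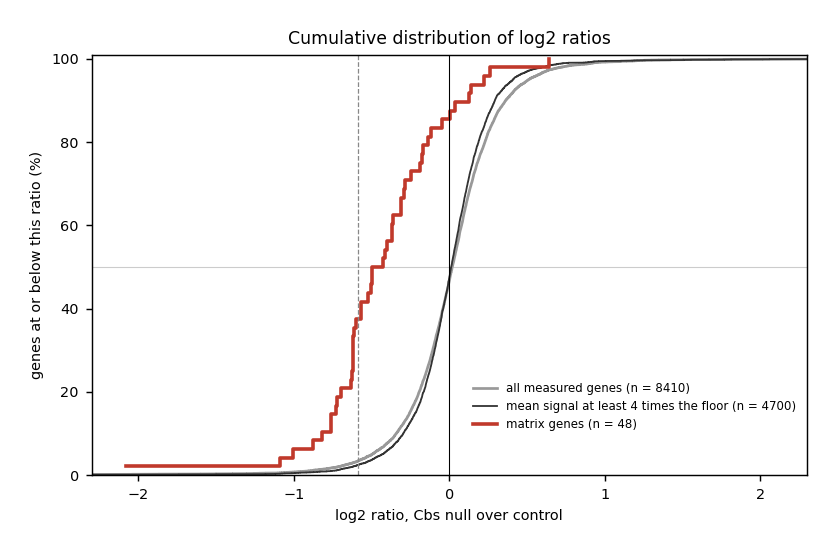
Cumulative distributions of the log2 ratio of Cbs null over control, with the percentage of genes at or below each ratio on the vertical axis, for all 8410 measured genes, the 4700 genes with a mean signal at least 4 times the floor, and the 48 matrix genes. The dashed line marks 1.5-fold lower; the curve of the matrix genes lies to the left, with its median at -0.46, and its lowest step at -2.08 is Col11a1.

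The fibrillar collagens were all lower in the Cbs null uterus, 7 of 7, with a median log2 ratio of -0.43, and 3 of them at least 1.5-fold. Col11a1, a minor chain that sits in the core of collagen fibres and is best known from cartilage, read 280.7 in the control and 66.4 in the Cbs null uterus, 4.23-fold lower. Its weaker probe set read 119.6 and 31.6, the latter below the floor, so at least 2.77-fold lower. Both probe sets therefore placed Col11a1 furthest from the control among the 48 measured matrix genes. Of 10 cartilage marker genes, which include Col2a1, Acan and Comp, 9 were below the floor on both arrays, and the exception, the transcription factor gene Sox9, read 73.9 and 105.4.

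Collagen V, which joins collagen I in mixed fibres, was lower in all 3 of its chains. Col5a1 read 1594.5 in the control and 967.1 in the Cbs null uterus, 1.65-fold lower, and its other probe sets were 1.55-fold and 2.16-fold lower. Col5a2 read 2869.1 and 2133.9, 1.34-fold lower, with 1.29-fold in its other probe set. Col5a3 read 239.4 and 193.0, 1.24-fold lower, and its other probe set was below the floor on both arrays. The order Col5a1, Col5a2, Col5a3 in these ratios is not firm, since the log2 ratios of Col5a1 and Col5a2 differed by 0.29 where the technical SD of such a difference is 0.30.

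For collagen I, the main fibre protein, the result depended on the probe set. Col1a1 read 4946.2 in the control and 3193.1 in the Cbs null uterus, 1.55-fold lower, and its weaker probe set read 2566.1 and 1349.4, 1.90-fold lower. Col1a2, the partner chain in the same helix, read 8077.5 and 6598.4, 1.22-fold lower, but its weaker probe set read 3708.2 and 2185.8, 1.70-fold lower. The brighter Col1a2 probe set lies near the upper end of the array, whose highest signal was 12408 in the control sample. Col3a1, the collagen of fine reticular fibres, was also close to that end at 8621.8 and 7666.9, 1.12-fold lower, and its much weaker probe set gave 1.19-fold. The weaker probe set thus gave the larger difference for both collagen I chains and hardly any more for Col3a1. The glycoprotein gene Sparc, at 8522.6 in the control on its brighter probe set, was 1.69-fold lower there and 1.47-fold on the weaker one. Whether a signal near the upper end bears on these ratios was not tested. Over the 26 matrix genes with at least 2 probe sets above the floor on both arrays, the dimmest gave the lower log2 ratio in 14. With the dimmest measured probe set in place of the brightest, the median of the fibrillar collagens was -0.76.

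**Figure D2:**
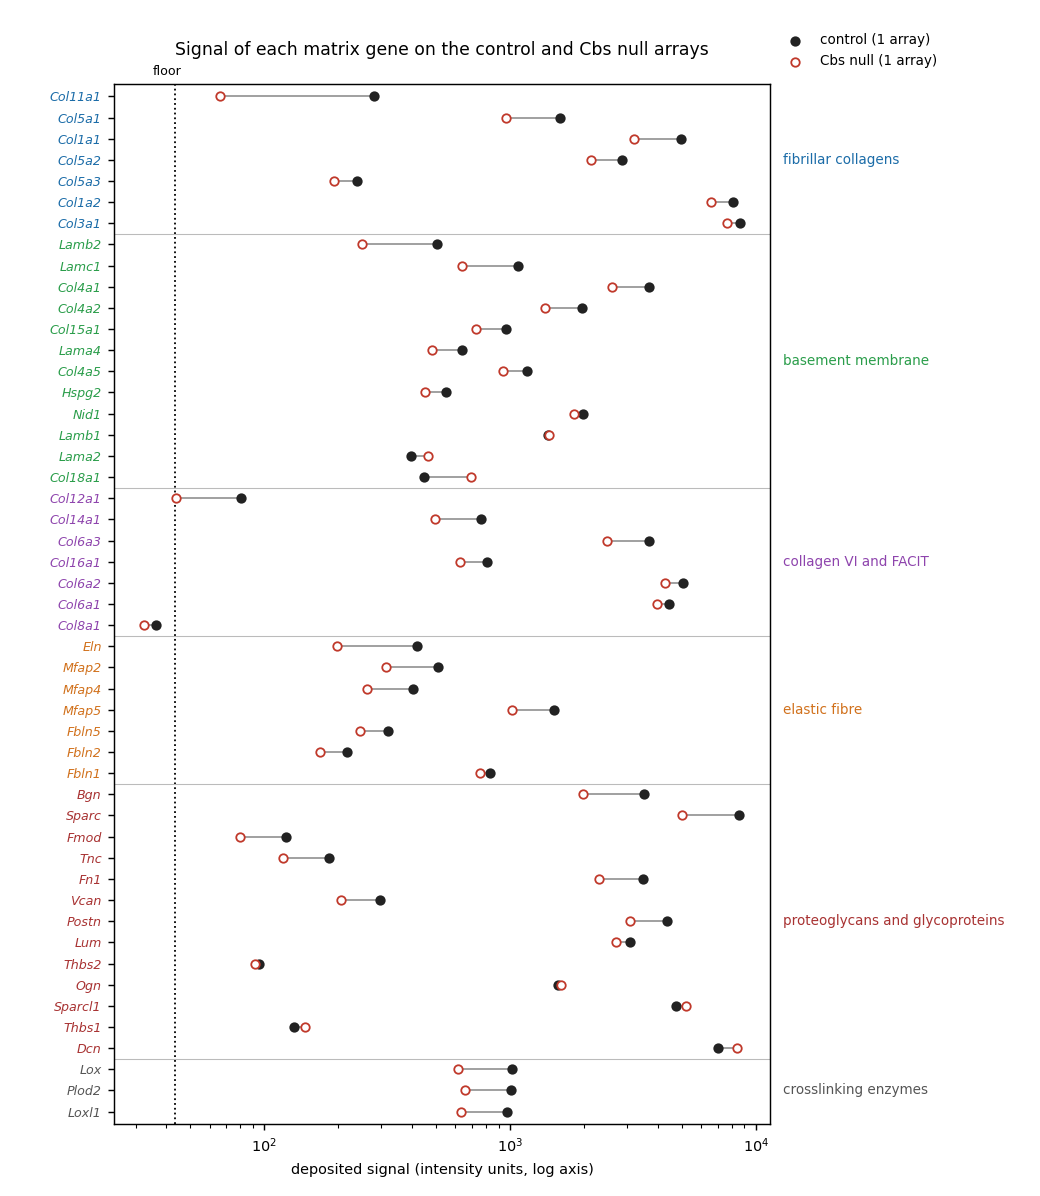
Deposited signal of each of the 49 matrix genes with a probe set of its own (log axis, intensity units), control as filled and Cbs null as open circles, 1 array each, with genes grouped by class and the floor of 43.2 as a dotted line. In the fibrillar collagen, collagen VI and FACIT, elastic fibre and crosslinking classes every open circle lies left of its filled one, whereas Col18a1, Lama2, Dcn, Thbs1, Sparcl1, Ogn and Lamb1 have theirs to the right, Lamb1 by almost nothing.

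Basement membrane genes were lower in 9 of 12 cases, with a median log2 ratio of -0.36, and they differed among themselves more than the fibrillar chains other than Col11a1. Col4a1 and Col4a2 encode the chains of the common collagen IV trimer. Col4a1 read 3687.6 in the control and 2599.7 in the Cbs null uterus, 1.42-fold lower, and 1.56-fold in its other probe set. Col4a2 read 1965.2 and 1392.9, 1.41-fold lower, so the log2 ratios of the partner chains differed by only 0.01. Col4a5, a chain of other collagen IV trimers, read 1169.6 and 941.3, 1.24-fold lower.

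Laminins are trimers of an alpha, a beta and a gamma chain, and their chains did not share one ratio. Lamb2, the beta 2 chain, read 504.7 in the control and 251.3 in the Cbs null uterus, 2.01-fold lower on its only probe set and so just past the 2-fold rule. Lamc1, the gamma chain of most laminins, read 1080.7 and 637.6, 1.69-fold lower, while a second probe set was below the floor on both arrays. Lamb1, the alternative beta chain, read 1431.2 and 1437.6 on its brightest probe set, while the others read 331.7 and 252.3, and 129.5 and 103.1, or 1.31-fold and 1.26-fold lower. Depending on the probe set, Lamb1 was thus level or modestly lower. The vascular alpha chain gene Lama4 read 638.8 and 484.2, 1.32-fold lower, whereas Lama2, the alpha chain around muscle fibres, read 396.2 and 463.3, 1.17-fold higher. The log2 ratios of Lama2 and Lama4 were 0.63 apart and those of Lamb1 and Lamb2 1.01 apart, which are 2.05 and 3.32 technical SDs of a difference. With the other Lamb1 probe sets the gap to Lamb2 was 0.61 and 0.68, or 2.01 and 2.22 such SDs.

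The collagens of the basement membrane zone that carry heparan or chondroitin sulfate chains stood on opposite sides of the control. Col18a1, whose C-terminal fragment is endostatin, read 445.3 in the control and 695.4 in the Cbs null uterus, 1.56-fold higher, and its other probe set read 257.5 and 416.7, 1.62-fold higher. It was the only one of the 48 measured matrix genes described here that was at least 1.5-fold higher. Its closest relative Col15a1 read 964.6 and 725.6, 1.33-fold lower. The perlecan gene Hspg2, a heparan sulfate proteoglycan, read 548.4 and 449.3, 1.22-fold lower, and Nid1, which links laminin to collagen IV, read 1977.4 and 1824.3, 1.08-fold lower.

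The start regions of 5 genes are shown because they cover a pair of chains that kept the same ratio and the lower genes Col11a1, Bgn and Col1a2. Each runs from 250 bases before to 50 bases after the annotated transcript start, 5′ to 3′ on the gene's strand, from RefSeq on GRCm38.p6. The windows are Col4a1 at chr8:11312777-11313076 on the minus strand, Col4a2 at chr8:11312555-11312854, Col1a2 at chr6:4505368-4505667, Col11a1 at chr3:114030290-114030589 and Bgn at chrX:73483351-73483650, the last 4 on the plus strand. Capitals mark matches of GGGCGG, of the motif CCAAT or of the motif TATAAA on either strand.
Col4a1: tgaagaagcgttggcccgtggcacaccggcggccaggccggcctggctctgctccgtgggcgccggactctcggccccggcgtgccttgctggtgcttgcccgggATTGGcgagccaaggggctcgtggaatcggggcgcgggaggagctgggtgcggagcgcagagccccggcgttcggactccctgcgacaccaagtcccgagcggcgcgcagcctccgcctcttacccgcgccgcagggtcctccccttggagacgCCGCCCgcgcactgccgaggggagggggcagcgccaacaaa
Col4a2: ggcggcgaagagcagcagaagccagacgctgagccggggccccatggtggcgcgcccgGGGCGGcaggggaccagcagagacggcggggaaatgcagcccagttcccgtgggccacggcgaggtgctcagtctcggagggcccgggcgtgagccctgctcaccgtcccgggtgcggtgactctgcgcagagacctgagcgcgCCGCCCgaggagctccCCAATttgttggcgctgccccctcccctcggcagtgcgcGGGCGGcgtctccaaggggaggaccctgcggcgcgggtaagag
Col1a2: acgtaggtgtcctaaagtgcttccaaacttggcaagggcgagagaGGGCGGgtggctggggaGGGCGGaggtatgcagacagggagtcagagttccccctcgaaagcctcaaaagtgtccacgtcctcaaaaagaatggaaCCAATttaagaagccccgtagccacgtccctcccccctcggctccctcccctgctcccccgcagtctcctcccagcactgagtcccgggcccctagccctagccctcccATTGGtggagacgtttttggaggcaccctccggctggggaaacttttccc
Col11a1: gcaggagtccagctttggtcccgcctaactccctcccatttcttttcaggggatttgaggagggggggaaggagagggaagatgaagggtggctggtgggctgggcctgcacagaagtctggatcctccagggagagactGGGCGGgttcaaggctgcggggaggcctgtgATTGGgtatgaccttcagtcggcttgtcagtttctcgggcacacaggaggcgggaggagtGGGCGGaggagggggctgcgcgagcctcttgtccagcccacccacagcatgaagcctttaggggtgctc
Bgn: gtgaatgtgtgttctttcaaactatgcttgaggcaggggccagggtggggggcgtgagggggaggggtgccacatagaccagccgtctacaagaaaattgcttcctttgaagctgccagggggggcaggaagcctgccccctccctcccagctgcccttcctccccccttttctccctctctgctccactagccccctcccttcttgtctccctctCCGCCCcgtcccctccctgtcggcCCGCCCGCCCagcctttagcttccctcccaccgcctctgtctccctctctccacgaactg

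Col4a1 and Col4a2 lie next to each other on opposite strands. Their annotated starts are 21 bases apart, and their windows share 78 bases, so the windows of these genes are in part the same stretch of DNA. TATAAA was in none of the 5 windows. GGGCGG was in all of them, 3 times in that of Col4a2 and 3 times in that of Bgn, where matches overlap. Windows were found for 34 of the 52 matrix genes, 43 windows in all. GGGCGG was in 65.1% of these 43 and in 63.2% of the 8826 windows of genes measured here, a like share. CCAAT was in 37.2% and 36.5%. TATAAA was in 6 of the 43, 14.0%, among them that of Col3a1, and in 7.63% of windows of measured genes. The CArG box, the binding sequence of serum response factor, was in 1 matrix gene window, that of Lama2, and in 1.45% of windows of measured genes. In all 32851 windows of the table the shares were 35.7% for GGGCGG, 37.4% for CCAAT, 13.6% for TATAAA and 1.63% for the CArG box.

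Other collagen neighbours on a chromosome had ratios closer to each other than the technical SD of a difference, 0.30. Such closeness is not particular to neighbours, since Col5a1 and Col5a2, which are not adjacent, were 0.29 apart. Whether neighbours lie closer than other pairs was not tested. The adjacent Col4a6 and Col4a5 stood at -0.29 and -0.31 on the log2 scale, Col6a2 and Col6a1 at -0.25 and -0.17, and Col3a1 and Col5a2 at -0.17 and -0.43. The adjacent small proteoglycan genes Dcn and Lum stood on opposite sides of 0, at 0.26 and -0.19, a gap of 1.47 such SDs.

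Collagen VI and the FACIT group, collagens that decorate fibres or form beaded filaments beside them, were lower in 6 of 6 measured genes, with a median log2 ratio of -0.46. Col8a1, a short network-forming chain placed here, read 36.2 and 32.5 and was not measured. Among the collagen VI chains, which join in one trimer, Col6a3 read 3688.2 in the control and 2493.3 in the Cbs null uterus, 1.48-fold lower. Col6a1 read 4461.0 and 3958.3, 1.13-fold lower, and Col6a2 read 5052.8 and 4257.9, 1.19-fold lower. The log2 ratios of Col6a1 and Col6a3 were 0.39 apart, 1.29 technical SDs of a difference.

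The fibre-associated collagens gave Col12a1 the largest ratio of the class but on the weakest signal. Col12a1 read 80.5 in the control and 43.8 in the Cbs null uterus, 1.84-fold lower and just above the floor. Col14a1 read 760.3 and 494.9, 1.54-fold lower, and 1.43-fold in a second probe set. Col16a1 read 803.2 and 624.1, 1.29-fold lower.

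Elastic fibre genes were lower in 7 of 7 measured cases, with a median log2 ratio of -0.57. Eln, the elastin gene, read 420.6 in the control and 197.4 in the Cbs null uterus, 2.13-fold lower. Its weaker probe set read 63.8 and 44.2, 1.44-fold lower, with the Cbs null value barely above the floor, and the mean over both had a log2 ratio of -0.81, short of 2-fold. The microfibril proteins followed with smaller differences. Mfap2 read 509.1 and 313.7, 1.62-fold lower, Mfap4 read 403.0 and 261.4, 1.54-fold lower, and Mfap5 read 1510.2 and 1016.9, 1.49-fold lower and 1.45-fold in its other probe set.

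The fibulins, which tether elastin to microfibrils and basement membranes, differed less. Fbln5, needed for elastic fibre assembly, read 317.9 and 245.9, and Fbln2 read 218.2 and 168.9, both 1.29-fold lower. Fbln1 read 831.3 and 756.4, 1.10-fold lower, but 389.4 and 457.4 in its other probe set, 1.17-fold higher, so it has no settled direction.

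**Figure D3:**
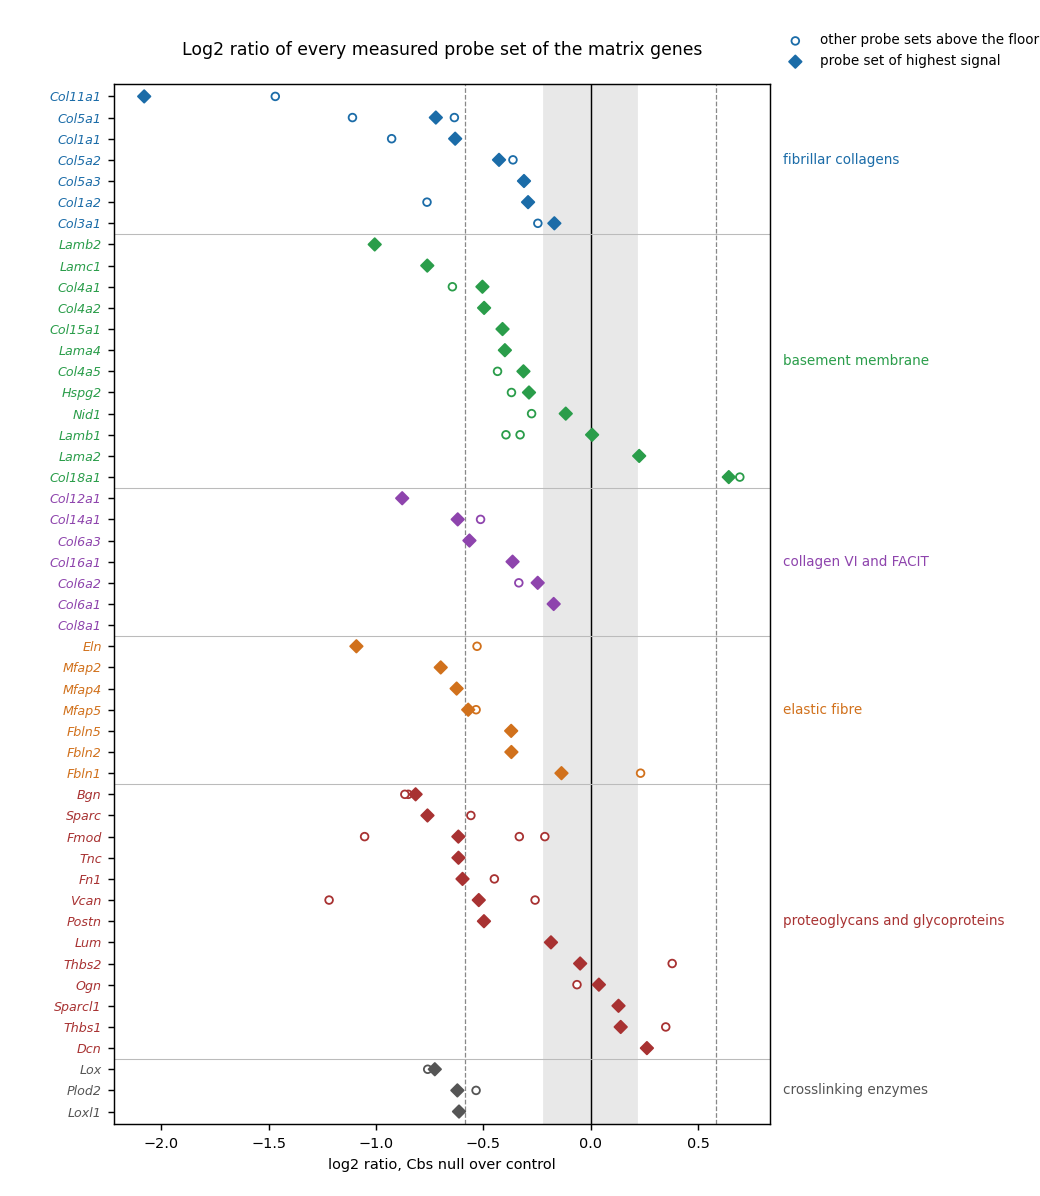
Log2 ratio of Cbs null over control for all 81 probe sets above the floor on at least 1 array, 1 line per matrix gene. Diamonds are the probe set of highest signal and open circles the others, the grey band is 1 technical SD (0.22) on either side of 0 and the dashed lines are 1.5-fold. Most points lie left of the band. The probe sets lie close together for Bgn, Lox and Col18a1 and far apart for Vcan and Eln. The open circle of Col11a1 and those of Fmod at -0.33 and -0.21 are bounds, since their Cbs null signals were raised to the floor.

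Over all probe sets, 70 of the 81 measured ones were lower in the Cbs null sample and 29 were at least 1.5-fold lower, against 47.2% and 3.43% of all 12936 measured single-gene probe sets. Probe sets of one gene share their RNA and array and are not replicates. Of the 26 genes with several probe sets above the floor on both arrays, 22 had all of them on one side of 0, lower for 20 genes and higher for Col18a1 and Thbs1. The exceptions were Fbln1, Lamb1, Ogn and Thbs2.

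Proteoglycans and glycoproteins split into genes that were clearly lower and genes that hardly differed. Their median log2 ratio was -0.50, 9 of 13 were lower, and 5 were at least 1.5-fold lower. Of the small leucine-rich proteoglycans, which bind collagen and set its spacing, Bgn read 3498.1 in the control and 1987.5 in the Cbs null uterus, 1.76-fold lower. Its other probe sets were 1.80-fold and 1.82-fold lower, the closest agreement among the genes with 3 such probe sets. Fmod read 122.8 and 80.1, 1.53-fold lower, and 94.0 and 45.3 in its next probe set, 2.08-fold lower. Weaker ones read 54.4 and 28.9, and 50.1 and 29.1, at least 1.26-fold and 1.16-fold lower, and the rest were below the floor on both arrays.

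The other members of that proteoglycan family stood apart from Bgn. Dcn, the decorin gene, read 7026.4 in the control and 8423.7 in the Cbs null uterus, 1.20-fold higher. Lum read 3079.7 and 2708.7, 1.14-fold lower. Ogn read 1569.2 and 1611.1 on one probe set and 1194.1 and 1142.3 on the other, so it was level. The large proteoglycan gene Vcan was lower on all of its probe sets but to unlike degrees, from 295.1 to 205.6 on the brightest, 1.44-fold, from 189.2 to 81.3 on another, 2.33-fold, and from 110.7 to 92.5 on the weakest, 1.20-fold. Its log2 ratios spanned 0.96, the widest among the 26 genes.

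The matricellular proteins regulate how cells attach to the matrix, and they too were mixed. Sparc, which binds collagen and assists its deposition, read 8522.6 in the control and 5031.5 in the Cbs null uterus, 1.69-fold lower, and 1.47-fold in its other probe set. Its relative Sparcl1 read 4756.7 and 5203.2, 1.09-fold higher. Tnc, an anti-adhesive glycoprotein of tissue under repair, read 183.6 and 119.8, 1.53-fold lower, and Postn, which promotes collagen crosslinking, read 4350.1 and 3081.8, 1.41-fold lower. Thbs1 read 132.8 and 146.3, 1.10-fold higher, and 1.27-fold in its weaker probe set. Thbs2 read 95.4 and 92.2, 1.03-fold lower, but 61.5 and 80.0 in its weaker probe set, 1.30-fold higher.

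Fn1, the fibronectin gene, whose product forms the first scaffold on which collagen fibres assemble, read 3475.4 and 2297.5, 1.51-fold lower. Its second probe set read 517.7 and 379.3, 1.36-fold lower. The main fibronectin receptor chain Itga5, from the list of matrix receptors, read 575.1 and 272.9, 2.11-fold lower.

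The crosslinking enzymes were lower in 3 of 3 measured genes, each by between 1.53-fold and 1.65-fold, the narrowest span of the 6 classes and also the smallest class. Lox, the main lysyl oxidase, read 1021.0 in the control and 617.2 in the Cbs null uterus, 1.65-fold lower, and 1.69-fold on a weaker probe set, while a further one was below the floor on both arrays. Loxl1, the lysyl oxidase linked to elastic fibres, read 969.5 and 633.7, 1.53-fold lower. Plod2, which hydroxylates collagen lysines before crosslinking, read 1006.0 and 654.1, 1.54-fold lower, and 1.45-fold in its other probe set. The probe set shared by Loxl2 and Gm21451 read 40.1 and 23.8, below the floor on both arrays.

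Genes outside these 52 that act on the same matrix were described from 8 lists. Over the 124 measured genes of these lists the median log2 ratio was -0.06, with 68 lower and 56 higher, 10 at least 1.5-fold lower and 6 at least 1.5-fold higher. Of all 8410 measured genes, 46.5% were lower and 53.3% higher, 3.39% at least 1.5-fold lower and 3.6% at least 1.5-fold higher. The list of collagen folding, processing and crosslinking genes had a median of -0.23, with 17 of 22 lower, 4 of them at least 1.5-fold. Tll1, a collagen-processing protease gene, read 33.3 in the control, which is under the floor, and 91.5 in the Cbs null uterus, at least 2.12-fold higher and the only gene of that list at least 2-fold apart. The 4 lower genes, named after their values were seen, were Pcolce, which speeds removal of the collagen propeptide (1.97-fold), P3h1 and P4ha2, which hydroxylate collagen prolines (1.64-fold and 1.56-fold), and the collagen chaperone gene Serpinh1 (1.51-fold).

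The remaining lists had medians between -0.35 and 0.15. Other collagens had 4 measured genes of 17 on the array and a median of 0.15, with Col4a6 at 254.5 and 208.3 and Col7a1 at 96.7 and 108.9. The other measured genes of that list were under the floor in the control and not far above it in Cbs null. Their ratios are bounds, and the median rests in part on one of them. Other elastic fibre genes had a median of 0.04 over 9, with Efemp1 at 1406.8 and 1727.9 and Ltbp3 at 1395.5 and 1419.7. Other basement membrane genes had a median of -0.12 over 9, with 7 lower, among them Smoc1 at 917.4 and 709.0 and Dag1 at 837.2 and 769.3. Other matrix proteoglycans had a median of -0.35 over only 4, with Prelp at 667.2 and 525.2 and Spock2 at 749.1 and 863.7. None of these 4 lists held a gene at least 2-fold apart.

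Other matrix glycoproteins had a median of 0.10 over 31 genes, 13 lower and 18 higher, where 53.3% of all measured genes were higher. At least 1.5-fold lower were 4 of them and at least 1.5-fold higher 3, against 3.39% and 3.6% of all measured genes. Thbs4, a thrombospondin of muscle and tendon, read 174.4 in the control and 10.2 in the Cbs null uterus, at least 4.04-fold lower. Of its relatives, Thbs1 was higher on both of its probe sets and Thbs2 differed in direction between probe sets. Thbs3 read 292.2 and 333.1, 1.14-fold higher. Slit3, a secreted guidance protein gene, read 252.1 and 120.0, 2.10-fold lower. The matrix receptor list had a median of -0.11 over 26, and beside Itga5 its gene at least 2-fold apart was Gpc3, a cell-surface proteoglycan, at 57.3 and 141.3, 2.47-fold higher. Genes of TGF-beta, the best known inducer of collagen synthesis, and of other matrix regulators had a median of 0.03 over 24 and none at 1.5-fold. Among them the receptor gene Tgfbr2 read 2843.7 and 2335.5, and the signal transducer gene Smad4 read 1385.2 and 1669.0.

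**Figure D4:**
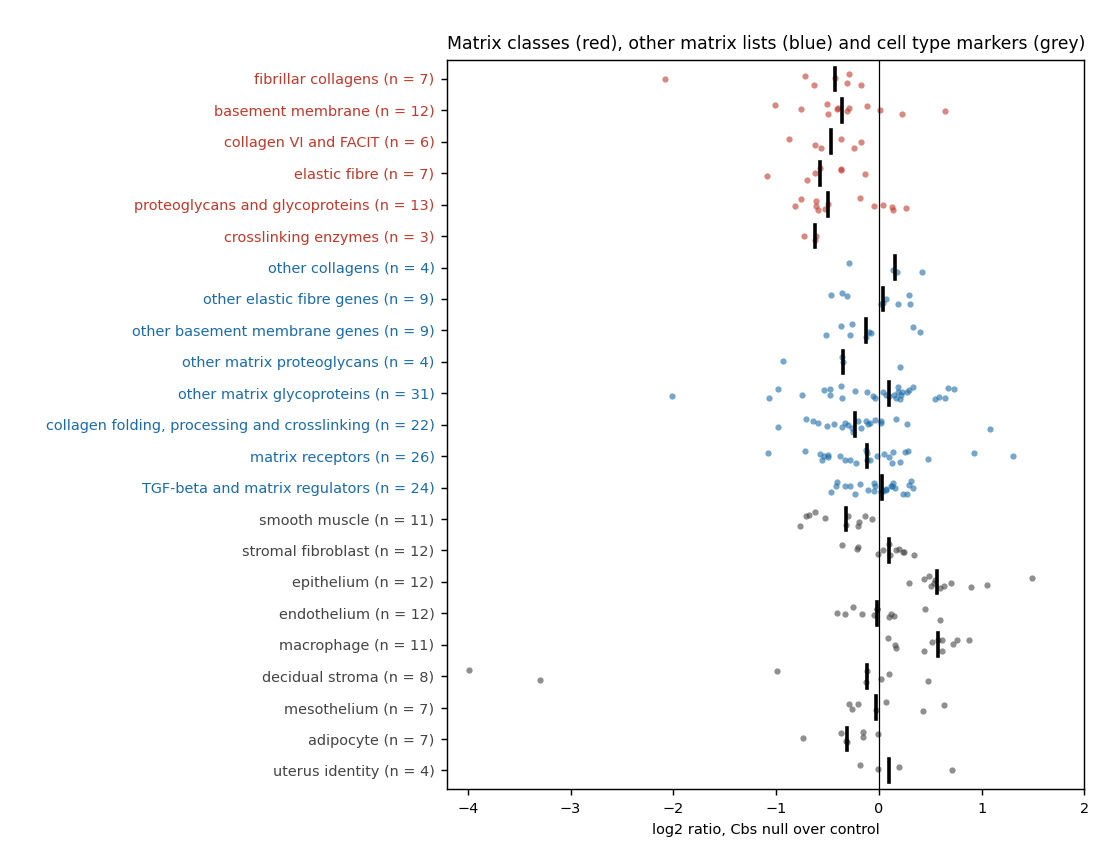
Log2 ratio of Cbs null over control for each measured gene (points) of the 6 matrix classes, the 8 lists of other matrix genes and the cell type marker lists with at least 4 measured genes, with the median of each as a black bar and the number of measured genes in brackets. The bars of all 6 matrix classes lie between -0.62 and -0.36, those of the smooth muscle and adipocyte markers at -0.32 and -0.31, and those of the epithelium and macrophage markers at 0.57 and 0.58.

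Markers of the cells in the tissue also differed between the samples. Of all measured genes, 46.5% were lower and 53.3% higher, with 3.39% at least 1.5-fold lower and 3.6% at least 1.5-fold higher. Smooth muscle markers were lower in 11 of 11 measured genes, with a median log2 ratio of -0.32, and their summed signal over 12 genes was 46704 in the control and 38109 in the Cbs null sample. The drop reached 1.5-fold for 4 of the 11, Actg2, Smtn, Des and Lmod1, named after their values were seen. Acta2 read 9826.1 and 9373.2 and Mylk 6681.8 and 5821.9, both less far apart. Adipocyte markers were lower in 7 of 7, with a summed signal of 16370 and 13462, and Fabp4 read 5129.6 and 3970.7 and Car3 7185.1 and 6451.6. Markers of stromal fibroblasts were mixed. Of 12, 8 were higher and 4 lower, with a median of 0.10, beside 53.3% higher and a median of 0.02 over all measured genes. None was 1.5-fold apart, and the summed signals were 11915 and 13011. Pdgfra read 1978.7 and 2134.1 and Vim 3638.9 and 4286.7.

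Epithelial markers were higher in 12 of 12, where 53.3% of all measured genes were higher. Their summed signals were 4009 and 6276.5, with Cldn3 2.07-fold and Muc1 at least 2.80-fold higher. Macrophage markers were higher in 11 of 11, with summed signals of 2808 and 4212, Csf1r at 669.1 and 1025.6 and Lyz2 at 770.6 and 1271.5. Endothelial markers had a median of -0.02 over 12, with 7 lower and 5 higher, Esam at 462.4 and 512.8 and Sox17 at 801.0 and 1209.7. Their summed signals were 3424 and 3844, and most of that rise came from Sox17 alone. Mesothelial markers also had a median of -0.02, over 7, with 4 lower and 3 higher, Wt1 at 807.1 and 702.8 and Krt8 at 633.6 and 981.0. Their summed signals were 2062 and 2300, but Krt8 is also on the epithelial list, and without it the sum would be lower in the Cbs null sample. Decidual stroma markers had a median of -0.12 over 8, with 5 lower and 3 higher, and summed signals of 2086 and 907. Prl8a2 was at least 9.82-fold and Tdo2 at least 15.9-fold lower, and most of the fall in the sum came from them. Trophoblast and embryo markers were below the floor on both arrays in 6 of 7 genes, the exception being Eomes at 61.4 and 61.6. No marker on any of these lists was at exactly 0. The part of these markers in the matrix differences was not tested, and in whole tissue fewer cells of a type and less RNA per cell cannot be told apart.

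Both arrays had the same overall scale, with median signals of 74.55 and 75.6. The brighter Cbs probe set read 79.8 in the control and 42.6, below the floor, in Cbs null, and the other read 39.8 and 25.1. The 3′ probe set of Gapdh exceeded the 5′ one by factors of 1.31 and 1.25, and that of Actb by 1.95 and 2.05. Of the genes taken to mark uterus, Hoxa10 read 1187.9 and 1358.8 and Hoxa11 read 1081.7 and 1077.0, Msx1 was above the floor on both arrays, Pgr only in the control at 49.1, and Esr1 on neither.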

How the data were processed

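RNA of the uterine wall between implantation sites was labelled with biotin by the Affymetrix protocol from 2 microg, with 1 array each for control and Cbs null, per the labels' protocols. The deposited values are 1 intensity per probe set on a linear scale. The submitters' processing notes name GCOS version 1.4, and how probes were summarised and scaled is not given in the sources used here. A 2% trimmed mean of 200.1 was found on both arrays, so values were used as deposited, and differences are relative to all other signals.

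The platform annotation gave 1 gene for 20380 of 22690 probe sets, several for 691 and none for 1555, with 64 array controls. Gene identifiers of 20351 matched the RefSeq table (GRCm38.p6), all 89 matrix probe sets among them, and no symbol changed. That table gave names and neighbours only. Signals below 43.2, the 40th percentile over the 2 arrays, were raised to it, a gene was measured when above it on at least 1 array, and a fold against a value below it is a lower bound. A gene was represented by its probe set of highest mean log2 signal. Folds of 2 and 1.5 served as size rules, with no test. Col15a1 and Col18a1 were placed with the basement membrane and Col8a1 with collagen VI.

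Members, lists and settings were chosen with earlier results of these data known, including a lower median of extracellular matrix genes, so that direction is not independent support. Named were all 49 matrix genes on the array and, of each other list, genes at least 2-fold apart or else the 2 of highest signal. Functions were tested on simulated data. Alternatives were median centring, quantile normalization, the 20th or the 60th percentile as floor, a pseudocount of 32, the mean over probe sets, leaving out _s_at, _x_at and _a_at probe sets, genes above the floor on both arrays, and a 3-fold rule. The dimmest measured probe set was added after seeing the data. Python 3.11.15, pandas 2.3.3, numpy 2.4.6 and matplotlib 3.10.9 were used. The number of arrays limits the precision.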

Additional observations from a re-analysis of the deposited data

Results flagged for a closer look

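A probe set annotated to both Pald1 and Thbs1, and so left out of the gene values, read 647.6 in the control and 775.6 in the Cbs null uterus, 1.20-fold higher. It drew attention as signal outside the gene-level comparison that was above the control. The probe sets of Thbs1 alone were 1.10-fold and 1.27-fold higher.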

How the results depend on the processing

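The median log2 ratio of all matrix genes lay between -0.50 and -0.42 under every alternative run, and each class median stayed below 0. The count of genes at least 2-fold lower was 3, and became 1 with a threshold of 3-fold and 1 with a pseudocount of 32 in place of the floor, which by construction shrinks ratios of weak signals and left only Col11a1. It lay between 2 and 4 under the other alternatives. The count at least 1.5-fold lower, 18, lay between 14 and 19. Fmod, 1.53-fold lower, stood at a log2 ratio of -0.03 with the floor at the 60th percentile, which lies above its Cbs null signal, and Col11a1 at -1.22. With the dimmest measured probe set, chosen after seeing the data, the median of the fibrillar collagens was -0.76 against -0.43, and that of proteoglycans and glycoproteins -0.21 against -0.50. The latter is the value of Fmod on a probe set that read 50.1 and 29.1, so it is a bound cut short by the floor. The cause of the shift in the fibrillar collagens was not tested. For single genes, median centring shifts all ratios alike and the rule of both arrays changes none. Of 330 single-gene values under the other alternatives, 170 equalled the reported value, 138 moved by less than the technical SD of 0.22 and 22 by more. No gene at least 1.5-fold apart changed direction under any of them. No scaling moved the median of all genes by over 0.1. No paired analysis was possible because each group has 1 array. Leaving out a replicate was not possible either, and signals below 43.2 have no order.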
